A study of Mus musculus with 11 samples.

Results

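Leukocyte adhesion molecules and selectins are the surface proteins with which blood leukocytes are held on vessel walls. They are described here in sympathetic ganglia of Apoe-deficient and wild-type mice. The group holds 7 genes, Vcam1, Icam1, Icam2, Sele, Selp, Selplg and Cd44, of 12393 genes that had a probe set naming 1 gene. All single-gene probe sets of the 7 symbols were taken, which gave 11 probe sets, and 0 probe sets naming several genes held a member. A probe set is a group of short DNA probes that read 1 transcript on the array. Of the 11 probe sets, 7 were above background, which left 6 of the 7 genes for testing, with Sele below it.

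The 11 Affymetrix arrays came from male C57BL mice aged 78 weeks and kept on normal chow, 6 with the genotype apoE-/- and 5 wild-type. Apolipoprotein E carries lipid in the blood, and mice without it develop atherosclerosis; the labels name no further allele or agent in either group. The title of the series names crosstalk of the atherosclerotic aorta with peripheral nerves as its subject. Laser capture was used to cut out the frozen ganglion tissue, and no label ties an array to an animal. The p-values therefore measure only the spread between arrays, which may be technical in part, and they are too small if arrays share an animal.

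A leukocyte first rolls on the endothelium through selectins, which bind sugar chains on glycoproteins such as the product of Selplg. It then stops when its integrins bind immunoglobulin-like molecules of the endothelium, VCAM-1 and the ICAMs, and crosses the wall. Inflamed endothelium makes more of several of these molecules, in atherosclerotic arteries among other places. RNA from whole tissue pools all cells, so fewer cells of a type and less RNA per cell cannot be told apart.

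The arrays checked as follows. Apoe read 143 ± 84.6 (SD, n = 6) signal units in Apoe-deficient and 15155 ± 3020 (SD, n = 5) in wild-type ganglia, so all 11 arrays lay on their labelled side. All 9 measured sympathetic neuron markers passed the filter, among them Th and Dbh, enzymes of noradrenaline synthesis. The hybridisation controls, RNAs added before hybridisation, were used to sort the arrays into 3 signal levels. The method fixed this number by cutting at the 2 largest gaps in mean log2 signal. The low level ended at 11.07 and the middle level began at 11.78. The cut between middle and high, from 12.05 to 12.48, was less clear, as the next array read 12.79. Low were 3 arrays, all Apoe-deficient (replicates 2, 3 and 4). In between lay 4 arrays, of which 1 was Apoe-deficient (replicate 5), and high were 4 arrays, 2 of each group. Values within levels are therefore given beside the results.

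None of the 6 testable adhesion genes passed the threshold. Vcam1, Icam1 and Selplg had means 1.43 to 1.48-fold higher in Apoe-deficient ganglia, while Icam2, Selp and the main Cd44 probe set lay close to the wild-type level. The moderated linear model limma called 0 of the 6 at an adjusted p under 0.05, where it called 1.93% of all 8433 genes. At an unadjusted p under 0.05 there were 3 of the 6, against 20.3% of all genes. The groups overlapped for all 6 genes, whereas they did not for 2.96% of all genes. The mean was higher in Apoe-deficient ganglia for 5 of the 6 genes, against 43% of all genes, and the median log2 difference was 0.37, against -0.04 over all genes. Icam1, counted among the 3 and the 5, passed the filter through the group where it was high. The members were chosen with earlier results of these data known, so these shares are a description and no test of the group. A difference in log2 is that of log2(signal + 16), which understates the change of dim genes.

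Above background means that a probe set exceeded the 40th percentile of all normalised values, a log2 value of 6.98, in at least 5 arrays. By this measure 63.6% of the adhesion probe sets and 62.6% of all single-gene probe sets were above background. Probe sets of germ-cell and olfactory receptor genes, which ganglia are not expected to use, passed it in 5.56% of 54 cases. When the 95th percentile of those probe sets (log2 value 7.47) was the limit instead, 4 of the 11 remained above it. Lost were Icam1, above it in 4 arrays, and Icam2 and Selp, above it in 0. In the Apoe-deficient arrays Apoe itself still read from 7.2 to 268.2 signal units. That range holds all readings of Icam1, Icam2 and the brighter Selp probe set. Passing the 40th percentile therefore does not by itself show that a transcript was present. In all 11 arrays the 40th percentile was exceeded by 4 probe sets, 2 of Vcam1 and 1 each of Selplg and Cd44.

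Vcam1 encodes VCAM-1, the endothelial ligand of the integrin VLA-4 on monocytes and lymphocytes. Its brightest probe set, 1448162_at, read from 421.3 to 657.7 signal units with a median of 551.8 in the 6 Apoe-deficient arrays. The 5 wild-type arrays, replicates 1 to 5, read 351.4, 310.4, 266.7, 401.8 and 458.4. After normalisation 4 of the 6 Apoe-deficient arrays lay above the highest wild-type array, replicate 5, and Apoe-deficient replicates 1 and 2 lay below it, so the groups overlapped. The log2 difference was 0.56 (SE 0.16, 95% confidence interval 0.23 to 0.90), 1.48-fold, with a limma adjusted p of 0.081. By p-value Vcam1 ranked 301 of 8433 genes. This was the smallest p among the members.

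The second Vcam1 probe set above background, 1415989_at, read from 121.9 to 227.6 with a median of 209.6 in Apoe-deficient arrays. It read 127.9, 164.9, 125.7, 176.3 and 161.1 in wild-type replicates 1 to 5. Again 4 Apoe-deficient arrays lay above all wild-type ones, but Apoe-deficient replicate 1 lay near the lowest. Its difference was 0.35 (SE 0.17, interval -0.03 to 0.72, adjusted p = 0.29 when limma tested every probe set past the filter on its own, which called 1.43% of them). The third, 1451314_a_at, was above background in 1 array and scattered from 16.2 to 115.8 in wild-type arrays alone, so it gave no usable comparison.

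The Vcam1 difference changed little with the processing, whereas its adjusted p moved. With array weights, which count arrays close to their group for more, the adjusted p was 0.0494 and Vcam1 was the 1 adhesion gene called; the same setting called 7.92% of all genes. Without Apoe-deficient replicate 1 the adjusted p was 0.0503. The limma adjusted p was 0.306 with a block for the control level and 0.376 without the 3 arrays of low control signal. Over 27 alternatives the difference ran from 0.46 to 0.65 and the adjusted p from 0.0494 to 0.536. Between arrays of 1 control level, the brightest probe set was higher in Apoe-deficient ganglia by 0.48 in the high level (2 arrays against 2) and by 0.65 in the middle level (1 against 3). The second probe set differed by 0.04 and 0.34.

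**Figure D1:**
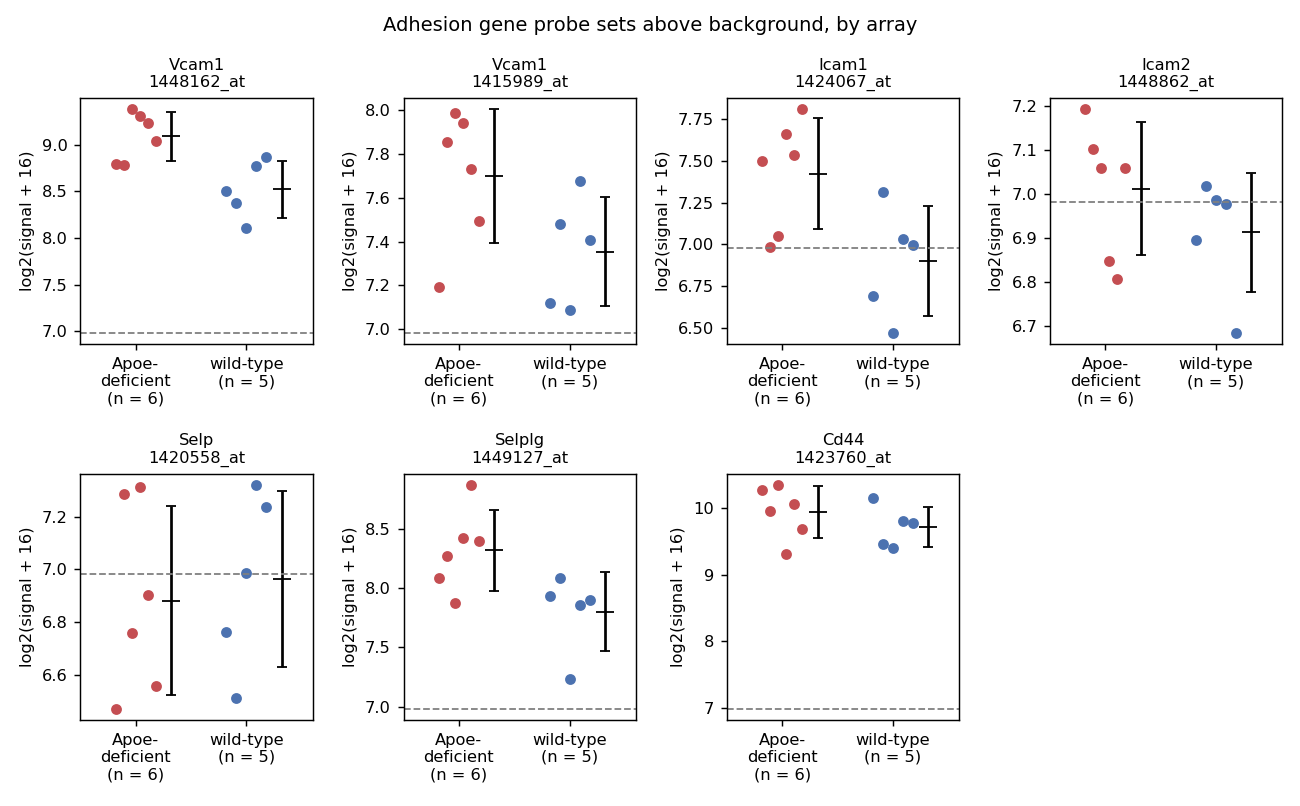
Normalised log2(signal + 16) of the 7 adhesion probe sets above background, 1 point per array for 6 Apoe-deficient (red) and 5 wild-type (blue) arrays, with the mean and SD in black and the background limit of 6.98 dashed. Vertical scales differ between panels; the points of both groups overlap in every panel, and 5 of 6 Apoe-deficient arrays lie above all wild-type arrays for Selplg, and 4 of 6 for both Vcam1 probe sets, Icam1 and Icam2.

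Icam1 encodes ICAM-1, the endothelial ligand of the leukocyte integrins LFA-1 and Mac-1, and is a textbook target of the transcription factor NF-kB, as is Sele. The table of promoter sequences used here, from RefSeq on GRCm38.p6, held 4 of the 7 genes. The promoters of Icam1 and Sele are shown because these genes stand for inducible endothelial adhesion and gave opposite readings here, Icam1 measurable and Sele not. Each sequence is that of the gene's own strand, from 250 bases before to 50 after the start given in the table. Capitals mark GGANNTTCC, a form of the NF-kB recognition sequence, and TATAAA, the letters of a TATA box.
Icam1, chr9:21015690-21015989, plus strand: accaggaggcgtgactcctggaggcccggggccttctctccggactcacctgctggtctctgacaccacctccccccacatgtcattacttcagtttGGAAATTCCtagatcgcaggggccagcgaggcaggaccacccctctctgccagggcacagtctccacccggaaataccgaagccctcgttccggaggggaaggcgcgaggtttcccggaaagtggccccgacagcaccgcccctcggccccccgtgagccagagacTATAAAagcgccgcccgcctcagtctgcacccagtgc
Sele, chr1:164047984-164048283, plus strand: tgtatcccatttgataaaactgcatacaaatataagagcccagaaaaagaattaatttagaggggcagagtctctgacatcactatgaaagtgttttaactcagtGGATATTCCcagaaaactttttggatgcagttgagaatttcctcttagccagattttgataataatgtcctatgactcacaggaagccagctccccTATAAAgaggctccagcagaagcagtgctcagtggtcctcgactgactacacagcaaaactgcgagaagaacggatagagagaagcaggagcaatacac

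Both motifs were searched on both strands after the sequences had been seen. GGANNTTCC occurred in 4.26% of 32851 promoters of 300 bases and TATAAA in 13.6%. In Icam1 the match began 153 bases before the start and read as a match on either strand; in Sele it began 145 bases before. TATAAA began 14 bases after the start given in the table in Icam1 and 49 bases before it in Sele. The promoters of Selp and Cd44 held 0 matches of either motif, which says only that these letters are not in those windows. A match is a description of the letters and not a measured binding site.

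The Icam1 probe set, 1424067_at, read from 104.4 to 222.6 signal units with a median of 165.4 in Apoe-deficient arrays. The wild-type arrays, replicates 1 to 5, read 93.5, 147.4, 77.8, 102.6 and 119.4. It exceeded the background limit in 6 of 6 Apoe-deficient and 3 of 5 wild-type arrays, so the lower arrays stood at the limit of measurement. The probe set thus passed the filter through the group where it was high. Apoe-deficient replicates 2 and 3 lay among the wild-type values and the other 4 above them. The difference was 0.52 (SE 0.20, interval 0.09 to 0.95, limma adjusted p = 0.174), 1.43-fold. It ran from 0.39 to 0.70 over 25 alternatives, with 0 calls, and was 0.65 within the high control level and 0.70 within the middle one.

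Icam2, which resting endothelium carries without induction, stayed close to the background limit. Its probe set, 1448862_at, read from 99.3 to 129.4 with a median of 110.6 in Apoe-deficient arrays and 109.1, 118.9, 116.6, 98.7 and 94 in wild-type replicates 1 to 5. The ranges of both groups overlapped, although 4 of 6 Apoe-deficient arrays lay above the highest wild-type array after normalisation. The probe set exceeded the limit in 4 Apoe-deficient and 2 wild-type arrays. The difference was 0.10 (SE 0.15, interval -0.23 to 0.42, limma adjusted p = 0.736), and it was 0.17 within the high control level and -0.08 within the middle one. The interval leaves room for a change smaller than that estimated for Vcam1, in either direction.

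Both vascular selectin genes were dim. Sele encodes E-selectin, which endothelium makes after activation. Its only probe set, 1421712_at, exceeded the background limit in 0 of 11 arrays. It read from 12.2 to 85.1 with a median of 49.8 in Apoe-deficient arrays and 39.2, 89.4, 50.1, 41.4 and 61.5 in wild-type replicates 1 to 5. The highest reading of all was a wild-type one. The difference was -0.14 over all 11 arrays (95% confidence interval -0.71 to 0.44 in a limma fit without the filter). Within the middle control level it was 0.01 and within the high level -0.46. Of the 2 Apoe-deficient arrays in the high level, 1 is replicate 1, which gave the lowest reading of all, 12.2. Such readings do not show that the transcript was absent, only that this probe set did not stand out from the dimmest part of the array.

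Selp encodes P-selectin, which endothelium and platelets store and move to the surface. Its brighter probe set, 1420558_at, read from 66.3 to 143.1 with a median of 98.0 in Apoe-deficient arrays and 98.2, 79.1, 116.6, 131.6 and 142.7 in wild-type replicates 1 to 5. It exceeded the limit in 2 Apoe-deficient and 3 wild-type arrays, which is the least number that the filter accepts. The difference was -0.08 (SE 0.22, interval -0.54 to 0.38, limma adjusted p = 0.851), and 0 of 6 Apoe-deficient arrays lay above the highest wild-type array. Within the high and middle control levels it was -0.12 and -0.28. The other probe set, 1449906_at, read between 2.3 and 6.6 on all 11 arrays and carried no usable signal. Of the platelet genes fixed as markers, Pf4, Gp1bb and Itga2b passed the filter, and 0 of these 3 were called.

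**Figure D2:**
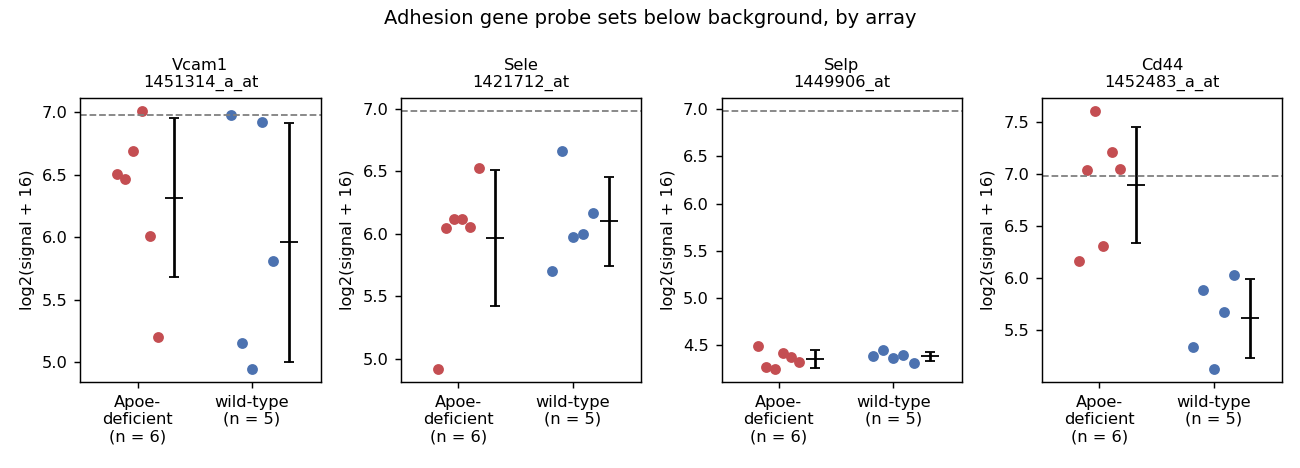
Normalised log2(signal + 16) of the 4 adhesion probe sets below background, drawn as points per array with mean and SD (6 Apoe-deficient, red; 5 wild-type, blue) and the limit of 6.98 dashed. Sele and Selp 1449906_at stay below the limit on all 11 arrays, and Cd44 1452483_a_at crosses it in 4 Apoe-deficient arrays.

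Selplg encodes PSGL-1, the glycoprotein on leukocytes that selectins grip. Its probe set, 1449127_at, exceeded the limit in all 11 arrays and read from 206.9 to 456.7 with a median of 307.7 in Apoe-deficient ganglia. Wild-type replicates 1 to 5 read 232.9, 254.7, 139.8, 202.4 and 230. Of the Apoe-deficient arrays, 5 of 6 lay above all wild-type arrays on the normalised log2 scale, replicate 1 only just, and replicate 3 lay among them. The difference was 0.52 (SE 0.19, interval 0.12 to 0.91, limma adjusted p = 0.15), 1.43-fold. Within the high control level it was 0.23, and within the middle level, where Apoe-deficient replicate 5 is the highest array of all, 1.21. Without wild-type replicate 3, the lowest array, it was 0.37 (adjusted p = 0.289).

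Selplg is a leukocyte gene, and markers of leukocytes differed between the groups. Of 9 pan-leukocyte markers, all past the filter, 5 rose and 0 fell, where 1.26% of all genes rose; among them were Ptprc, the common leukocyte antigen CD45 (log2 difference 1.4, SE 0.26), and Cd53 (1.62, SE 0.19). Ptprc lost its call without the 3 arrays of low control signal (1.42, limma adjusted p = 0.163), and Cd53 did not (1.5, adjusted p = 0.0267). The summed signal of the 9 ran from 3704 to 6896 in Apoe-deficient and from 2902 to 3157 in wild-type arrays, without overlap. Of 10 macrophage markers 6 rose, with sums of 6418 to 8944 against 4349 to 5477. Cd68, 1 of these 6, exceeded the background limit in 6 Apoe-deficient and 3 wild-type arrays, so it passed the filter through the group where it was high. Cd53 exceeded it in 6 and 4. Without the 3 arrays of low control signal 1 marker of each list was called, while the list medians were 0.95 and 0.68, against 0.84 and 0.80 with all arrays. With a block for that level 2 and 1 were called. The 6 macrophage calls became 2 without Apoe-deficient replicate 3 or without wild-type replicate 2 or 3, and 3 without wild-type replicate 1. Their part in the Selplg difference was not tested.

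Cd44 encodes the hyaluronan receptor CD44, which many cell types carry and whose transcript is spliced in many forms. The brightest probe set, 1423760_at, read from 620.2 to 1338.1 with a median of 1034 in Apoe-deficient arrays and 1100, 677.1, 667.9, 875.8 and 858.5 in wild-type replicates 1 to 5. The lowest array of all was an Apoe-deficient one, replicate 4, and 2 of 6 Apoe-deficient arrays lay above the highest wild-type array. The difference was 0.22 (SE 0.19, interval -0.18 to 0.62, limma adjusted p = 0.523). It was 0.18 within the high control level and 0.40 within the middle one.

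The other Cd44 probe set, 1452483_a_at, read 50, 109.8, 168.9, 63.4, 136.4 and 128.9 in Apoe-deficient replicates 1 to 6 and 27, 45.4, 21, 30.7 and 53.9 in wild-type replicates 1 to 5. After normalisation all 6 Apoe-deficient arrays lay above all 5 wild-type arrays, the 1 case among the 11 probe sets; the groups did not overlap for 2.17% of all 20380 single-gene probe sets. The difference in mean log2 value was 1.29. The probe set exceeded the background limit in 4 Apoe-deficient and 0 wild-type arrays and so fell short of the filter. Wild-type values at the bottom of the scale make the size of the difference uncertain: it was 1.63 with a pseudocount of 1 and 0.80 with 64.

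A fit of all single-gene probe sets without the filter, added after these values were seen, gave this Cd44 probe set an adjusted p of 0.0519 by limma, which misses the threshold. That fit called 0.765% of its probe sets. Over 17 alternatives to it the adjusted p ran from 0.0205 to 0.27, with 3 calls: with array weights (0.0205), without Apoe-deficient replicate 1 (0.0239) and without Apoe-deficient replicate 4 (0.049). The difference was 0.995 within the high control level, 1.6 within the middle level and 1.19 without the 3 arrays of low control signal. The differences of the 2 Cd44 probe sets stand side by side at 0.22 and 1.29, the latter against wild-type arrays that all lay below the background limit. The sources used here do not say which transcripts each probe set reads, and whether their differences are unequal was not tested.

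**Figure D3:**
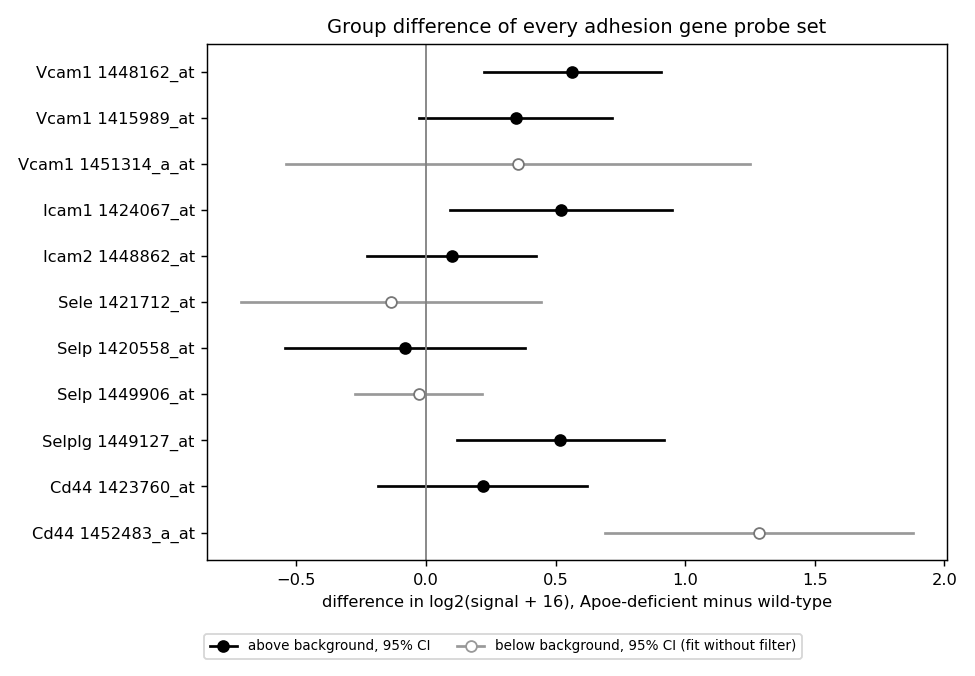
Difference in mean log2(signal + 16), Apoe-deficient minus wild-type, for all 11 adhesion probe sets, with 95% confidence intervals from limma over 6 and 5 arrays; filled points are above background, open points below it and taken from the fit without the filter. The intervals of Vcam1 1448162_at, Icam1, Selplg and Cd44 1452483_a_at lie above 0 before adjustment for the number of probe sets.

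**Figure D4:**
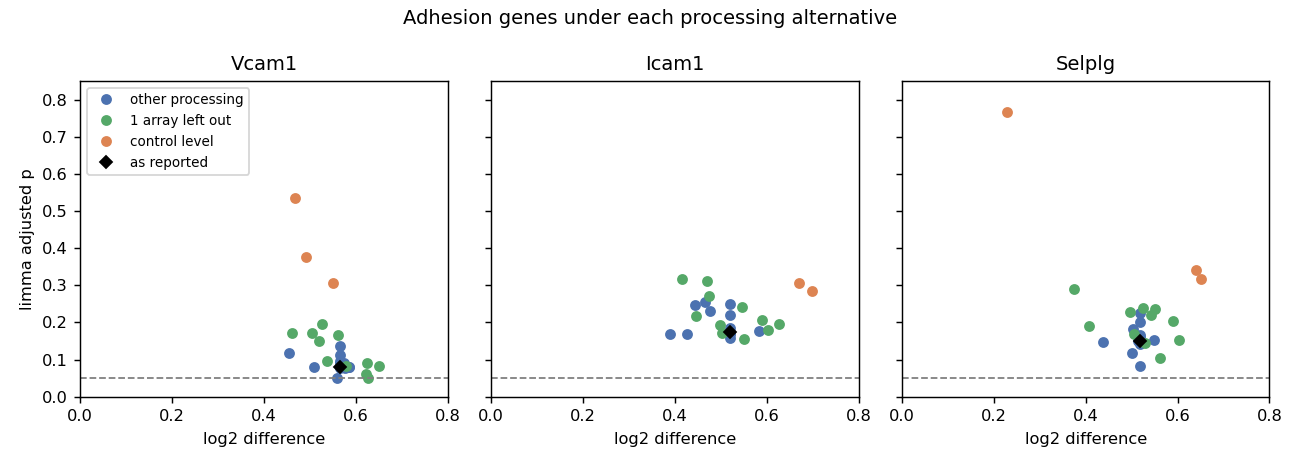
Log2 difference (horizontal) and limma adjusted p (vertical) of Vcam1, Icam1 and Selplg under each processing alternative, with the reported setting as a black diamond and the threshold of 0.05 dashed. Differences stay above 0 in all of them, and the 1 point under the line is Vcam1 with array weights, at 0.0494.

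The partners of these molecules were read next. Of 15 measured genes listed as counter-receptors, 8 passed the filter and 0 were called. This list was not confined to genes of leukocytes. Itgb2, the beta chain shared by LFA-1 and Mac-1, differed by 0.67 (SE 0.28, limma adjusted p = 0.204), and Cd34 and Podxl, sialomucins that can carry selectin ligands, by 0.42 and 0.39. Cd24a, another mucin-type protein, differed by -0.33. Itgal and Itgam, the alpha chains of LFA-1 and Mac-1, and Itga4, that of VLA-4, were below the filter. LFA-1, Mac-1 and VLA-4 could therefore not be followed, as a beta chain alone does not stand for any of them. Itgb2 exceeded the background limit in 6 Apoe-deficient and 3 wild-type arrays, so it passed the filter through the group where it was high. Itgb1, the beta chain of VLA-4, differed by 0.25 (limma adjusted p = 0.375). Itgax, another integrin alpha chain gene, passed the filter and differed by 0.15 (limma adjusted p = 0.712). It exceeded the background limit in 4 Apoe-deficient and 2 wild-type arrays. The median of the 8 was 0.20.

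The enzymes that build selectin ligands showed no called gene, with 11 of 19 past the filter and a median of -0.04. Fut7 and Fut4, the fucosyltransferases of the selectin-binding sugar, were below the filter. The nearest to the threshold was the sulfotransferase gene Chst1 (-0.42, limma adjusted p = 0.23), and the sialyltransferase gene St3gal6 differed by 0.42 (adjusted p = 0.381).

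Among hyaluronan and CD44 partners, 9 of 16 measured genes passed the filter and 1 rose, where 1.26% of all genes rose. The called gene was Cd74, the MHC class II invariant chain, which also pairs with CD44 as a cytokine receptor (1.38, SE 0.22, limma adjusted p = 0.00581). Cd74 lost its call in 1 alternative, the 2 against 2 arrays of the high control level (1.67, adjusted p = 0.341). Rdx, which encodes the cytoskeletal linker radixin, differed by 0.38 (adjusted p = 0.0922). The hyaluronan synthase gene Has1 differed by -0.50 and the linker gene Ezr by -0.42, and neither passed. The list median was -0.09.

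Of the genes that activate integrins or link them to the cytoskeleton, 2 of 11 past the filter rose, where 1.26% of all genes rose. Fermt3, which encodes kindlin-3, the integrin activator of blood cells, rose by 1.17 (SE 0.21, limma adjusted p = 0.0116), with 6 of 6 Apoe-deficient arrays above the highest wild-type one. The groups did not overlap for 2.96% of all genes. Fermt3 exceeded the background limit in 6 Apoe-deficient arrays but in 1 wild-type array, so it passed the filter through the group where it was high. Rap1a, a small GTPase that switches integrins on, rose by 0.49 (SE 0.12, adjusted p = 0.0494); it lost its call in 18 alternatives, among them those without Apoe-deficient replicate 2, 3 or 4 or without wild-type replicate 1, 2, 3 or 5, where its adjusted p ran from 0.0914 to 0.136. Skap2, a leukocyte adaptor gene, differed by 0.43 (adjusted p = 0.064). Fermt2 and Tln1, kindlin-2 and talin-1, which other tissues use as well, differed by 0.08 and -0.20. Without the 3 arrays of low control signal Fermt3 fell below the filter, and 0 of the 10 genes tested were called.

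Endothelial genes held no called member; whether they differed from the leukocyte lists was not tested. Of 18 endothelial markers 16 passed the filter, 10 with a higher mean, and their median difference was 0.05. Pecam1, which marks endothelium and also leukocytes, differed by 0.50 (SE 0.18, limma adjusted p = 0.157), Kdr by -0.34, and Cdh5, the VE-cadherin gene, by 0.15. The summed signal of the endothelial markers ran from 3877 to 5684 in Apoe-deficient and from 4105 to 5293 in wild-type arrays, and overlapped. Of 14 other junction and transmigration genes past the filter 0 were called, and their median was -0.06. Without Apoe-deficient replicate 5, 1 gene was called in each of these lists. The lists share genes, Pecam1 and Cdh5 among them, so this can be 1 gene counted in both. A list of genes of NF-kB signalling and of cytokines and receptors that induce adhesion molecules gave 0 calls among 11 genes, with differences between -0.21 and 0.14. Rela was the 1 NF-kB subunit tested; Nfkb2, Relb, Tnf and Il6 were below the filter, and Nfkb1 was not measured by a single-gene probe set.

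**Figure D5:**
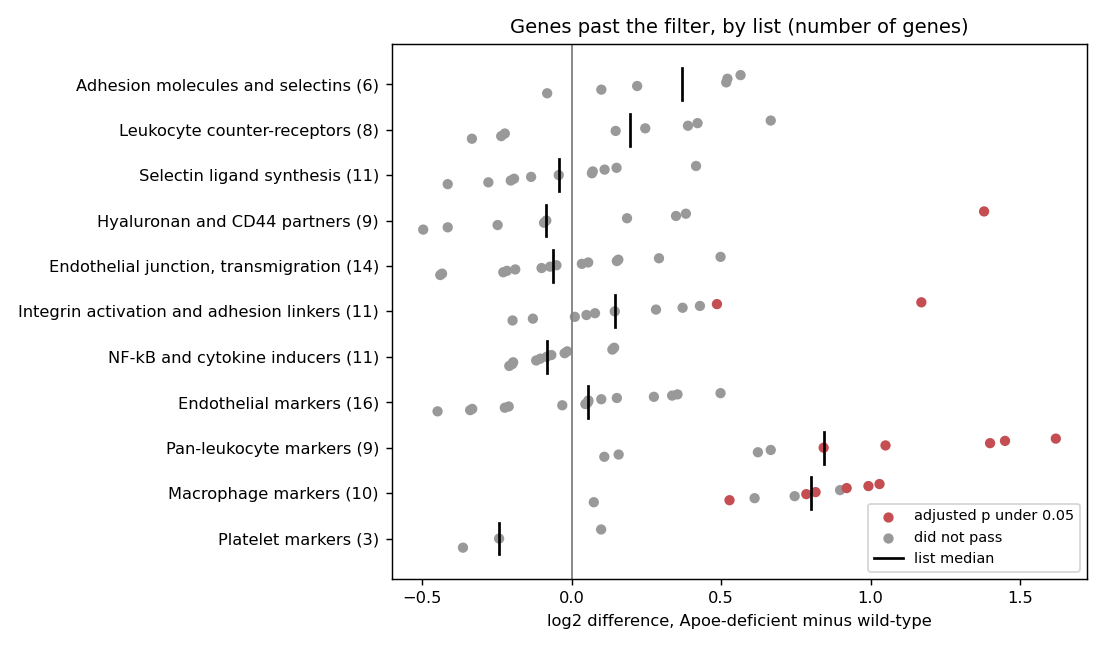
Log2 difference of each gene past the filter (1 point per gene, red where limma's adjusted p was under 0.05) in the adhesion group, 6 lists of partner genes and 4 lists of cell markers, with the list median as a black bar. The adhesion genes hold no red point, the pan-leukocyte and macrophage markers hold 5 and 6, and the endothelial markers none.

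For each testable member, the 3 genes whose log2 values followed it most closely over the 11 arrays were looked up by Pearson's r, as a description. They were Tmpo (r = 0.955), Ctss (0.915) and Hmgb2 (0.898) for Vcam1; Ctss, the macrophage protease cathepsin S, had itself risen by 1.20. Icam1 was followed by Itpr2 (0.923), Unc93b1 (0.857) and Lnx1 (0.853), and Icam2 by Dnase1l1 (0.872), Igfbp6 (0.864) and Cldn1 (0.856). Selplg was followed by Gusb (0.881), the leukocyte GTPase gene Rac2 (0.857) and Ifnar1 (0.843). Selp had Med4 (0.874), Sgcb (0.849) and Hspa4 (0.848), and Cd44 had Stard4 (0.933), Rims2 (0.89) and Dennd5a (0.876). These are the highest of 8432 correlations each, and arrays share group and control level.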

How the data were processed

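Total RNA was measured on 11 arrays. The authors deposited 1 linear intensity per probe set and array, made with GCOS 1.4 per the submitters' processing notes; for the signal algorithm and detection calls, the sources used here give nothing. The values themselves show a common 2% trimmed mean of 500.2 on every array. Signals without the 64 control probe sets were converted to log2(signal + 16), then quantile normalised. A probe set was kept if 5 or more arrays exceeded the 40th percentile over the whole table, and each gene was read by its brightest single-gene probe set. Groups were compared with limma 3.58.1 in R 4.3.3 (intensity trend, two-sided, Benjamini-Hochberg over 8433 genes, threshold 0.05); the code was tested on simulated data. Other probe sets of a gene were tested in a second fit over 12757 probe sets. Figures were drawn with matplotlib 3.10.9. The number of arrays limits the precision.

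The members and lists were chosen with earlier results of these data known. The genes named were Apoe, the members with their nearest patterns, up to 4 partner genes of smallest p in a list plus any called, and examples chosen after their values were seen: Itgal, Itgam, Itga4, Itgb1, Itgax, Fut4, Fut7, Fermt2, Tln1, Kdr, Cdh5, Ptprc, Cd53, Cd68, Ctss, Th, Dbh, Pf4, Gp1bb, Itga2b, Rela, Nfkb1, Nfkb2, Relb, Tnf, Il6, Kit, Mcpt4, Tpsb2, Jchain, Ighm, Nkg7, Cd3e, Cd4, Cd8a, Ngp and Ltf. The alternatives covered scaling, pseudocount, filter, probe set rule, variance model, array weights, control level, a replicate block and each array left out.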

Additional observations from a re-analysis of the deposited data

Results flagged for a closer look

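In 2 of 22 sets of member values (11 probe sets in each group) a single array stood apart from its group by Dixon's 95% limit, where chance gives about 1 in 20. Sele in Apoe-deficient replicate 1 had a log2 value of 4.92, with the next array of its group at 6.04; all values of this probe set lie below the background limit. Selplg in wild-type replicate 3 had a log2 value of 7.23, with the next array at 7.86.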

How the results depend on the processing

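The count of 0 called adhesion genes held in all alternatives but array weights, where it was 1 (Vcam1). Several of these tested fewer than 6 members. They were 2 with the filter at the 60th percentile, 3 within the high control level and 4 without the 3 arrays of low control signal. With 1 array left out they were 5 or 6. A count of 0 says less in those settings. The number of probe sets above background was 7, and 4 by the germ-cell and olfactory receptor limit or when all 11 arrays had to pass. The 163 called genes of the whole array became 668 with array weights, 45 with the control level as a block, 24 without the 3 arrays of low control signal, 4 within the high level, and 75 to 267 with 1 array left out. In every fit that tested it, the sign of each adhesion gene's difference held. For Selp, tested in 19 alternatives, the difference ran from -0.20 to -5.05e-05, so its sign shows no clear direction. Between the arrays of the middle control level, 1 against 3 with no test, Icam2 differed by -0.08. With the replicate number as a block, 185 genes and 0 adhesion genes were called. The labels do not say whether the numbers pair the arrays. Deviations of same-numbered arrays correlated from -0.18 to 0.15 over 5 pairs, which are too few to settle it. Probe sets near the background limit, above all Icam2, Selp and Icam1, cannot carry small differences.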

Other observations

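Markers of other cell types that adhesion molecules could bring into a ganglion did not move alike. Of 5 mast cell markers past the filter 4 rose, with differences from 0.02 (Kit) to 2.47 (Mcpt4), where 1.26% of all genes rose. Tpsb2 exceeded the background limit in 5 Apoe-deficient and 0 wild-type arrays and Mcpt4 in 6 and 2, so both passed the filter through the group where they were high. The 4 mast cell calls became 0 with the control level as a block or without the 3 arrays of low control signal, 1 when Apoe-deficient replicate 3 was left out, and 2 when either Apoe-deficient replicate 4 or wild-type replicate 5 was. Of 4 B and plasma cell markers 2 rose, the antibody genes Jchain (4.33) and Ighm (3.76). Jchain exceeded the limit in 6 Apoe-deficient and 3 wild-type arrays, so it too passed through the group where it was high. These 2 calls became 0 without the 3 arrays of low control signal, and 1 with robust variance estimation or with a block for the control level. Only Nkg7 of 8 measured T and natural killer cell markers passed the filter (0.56, limma adjusted p = 0.3), and Cd3e, Cd4 and Cd8a were below it. Of 7 neutrophil markers 2 passed, Ngp and Ltf, with differences of -0.53 and -0.38 and 0 calls. Fibroblast, smooth muscle, glial and sympathetic neuron markers gave 0 calls among 6, 6, 6 and 9 genes, with medians of 0.46, 0.10, 0.06 and -0.02. The fibroblast list had 3 calls with array weights and 2 with the replicate block or without Apoe-deficient replicate 5. The neuron list had a median of -0.23 without quantile normalisation and -0.22 with median centring, and 1 lower call with array weights or with the replicate block. White adipocyte markers gave 0 calls among 4 genes, with a median of -0.63; it was -0.27 when Apoe-deficient replicate 5 was left out, -0.93 when replicate 1 of that group was, and 1 within the high control level, where 3 genes were tested.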
